A study of Mus musculus with 42 samples.

Results

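MEIS proteins bound 907 places in the genome of differentiating mouse neurons where the day 3 lists of the induced HOXC6, HOXC9 and HOXC10 factors held no event. These places were selected on the event lists themselves. Each is an event of the MEIS list of iHoxc6 cells on chromosomes 1 to 19 or X that had a MEIS event within 100 bp in both iHoxc9 and iHoxc10 cells. None had a HOXC6, HOXC9 or HOXC10 event within 100 bp at day 3. The iHoxc6 MEIS list held 8219 events, of which 8154 lay on the chromosomes used. Of these, 5132 were common to the 3 MEIS lists, so that the 907 HOX-negative sites made up 17.7% of the common sites and 11.1% of all 8154 events. The other 4225 common sites are called HOX-positive below and serve as the comparison. Among them, 665 had events of 1 of the 3 HOX factors, 1173 of 2 and 2387 of all 3. Both names refer to these 3 HOX lists alone, and the data go against reading the first as free of induced HOX factors in general. Of the 907 sites, 679 (74.9%) had an event in at least 1 of 13 HOX lists that the rule did not use, against 94.3% of all 8154 events.

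MEIS and PBX are TALE homeodomain proteins, a family of HOX cofactors that carry an extended loop in the homeodomain. PBX binds DNA side by side with HOX proteins and with MEIS, and MEIS binds its own short core, TGACAG, alone or next to a PBX site. In the developing hindbrain and spinal cord these cofactors are known for their part in the regulation of Hox genes and of HOX targets. HOX proteins of the central and posterior paralogue groups give neurons of the spinal cord their position along the body axis.

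The cells were mouse embryonic stem cells of the Ainv15 background in which doxycycline (Dox) switches on 1 inserted copy of a tagged Hox gene. They grew as embryoid bodies (EBs), and retinoic acid (RA) and the smoothened agonist SAG steered them toward spinal motor neurons. The MEIS libraries came from iHoxc6.V5, iHoxc9.V5 and iHoxc10.V5 lines at day 3, after 24 h of Dox, and used an antibody to Meis1/2. All 3 therefore carried an induced HOX factor, and a MEIS library without Dox was not analysed here. The paper reports that control cells expressed endogenous Hox genes up to the Hox5 paralogues. The HOX lists are of induced tagged factors, so endogenous HOX proteins were not assayed. The HOXC6, HOXC9 and HOXC10 lists of day 3 came from lines with a Flag tag at the same time point, apart from the first of 3 HOXC10 libraries, which was from the iHoxc10.V5 line. Further lists covered HOXC8, HOXA9, HOXD9 and HOXC13 at day 3, 4 chimeras of HOXC10 and HOXC13 at day 3, HOXC6, HOXC9 and HOXC10 at day 4 after 48 h of Dox, and HOXC6 and HOXC9 in EBs that had 12 h of Dox and neither RA nor SAG. The second library of HOXA9, of HOXD9 and of HOXC13 came from a line with an HA tag, and the other libraries of these lists from Flag lines. PBX was assayed at day 4 after 48 h of Dox in iHoxc9 and iHoxc10 cells with an antibody to PBX proteins.

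The MEIS lists rest on 1 library each, with 12.1, 9.70 and 10.9 M aligned reads in iHoxc6, iHoxc9 and iHoxc10 cells and signal fractions of 0.077, 0.238 and 0.119. The 3 HOX lists that define the sites pool 2 or 3 libraries each. Their signal fractions lay between 0.07 and 0.08 for HOXC6, at 0.174 and 0.398 for HOXC9 and between 0.017 and 0.161 for HOXC10, where 1 library had 5.04 M reads. Absence of a HOX event is thus absence at that depth and that threshold. Each HOX list pools its libraries and each MEIS or PBX list holds 1 library, so no spread between cultures could be computed. The intervals given here cover counting error over sites only. Neighbouring sites share reads, so these intervals are on the narrow side.

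Many of the strongest HOX-negative sites lay in tandem repeats, which their sequences show. The 81 bases around each of the 4 best ranked ones in such repeats that overlap no exon follow, read from GRCm38 on the + strand, with the MEIS core (TGACAG) and the PBX-HOX open pair (TGATNNAT, where N is any base) in capitals on either strand. Ranks are means of the ranks by q-value in the 3 MEIS lists. Mcfd2 lies at chr17:87235119-87235199, Lypd6b at chr2:49768045-49768125, Commd9 at chr2:102004660-102004740 and D330020A13Rik at chr6:120271133-120271213, each named after the nearest protein-coding gene. The next line is the best ranked site of an array of 28 near Gm853, at chr4:130206022-130206102.
Mcfd2: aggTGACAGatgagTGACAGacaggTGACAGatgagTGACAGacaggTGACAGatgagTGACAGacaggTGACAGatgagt
Lypd6b: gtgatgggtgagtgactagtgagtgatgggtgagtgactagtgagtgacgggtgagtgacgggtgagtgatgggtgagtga
Commd9: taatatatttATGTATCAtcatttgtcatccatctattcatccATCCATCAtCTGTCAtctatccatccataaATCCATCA
D330020A13Rik: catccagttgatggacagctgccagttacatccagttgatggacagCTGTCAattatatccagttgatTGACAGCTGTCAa
Gm853: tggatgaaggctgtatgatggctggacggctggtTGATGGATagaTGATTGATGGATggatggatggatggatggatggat

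Sites outside such repeats and HOX-positive sites are shown for contrast. The first 3 below are HOX-negative. The Ccdc182 site lies at chr11:88280517-88280597, the Armc3 site, which had a PBX event, at chr2:19199127-19199207, and the Hoxb1 site at chr11:96365509-96365589. Gpr84 at chr15:103305343-103305423 and Usp29 at chr7:6930528-6930608 are HOX-positive sites of high rank, and the latter lies in a tandem repeat as well. Open pairs stand at the Ccdc182, Armc3 and Usp29 sites, and a MEIS core at Gpr84.
Ccdc182: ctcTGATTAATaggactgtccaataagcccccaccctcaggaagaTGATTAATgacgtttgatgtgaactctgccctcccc
Armc3: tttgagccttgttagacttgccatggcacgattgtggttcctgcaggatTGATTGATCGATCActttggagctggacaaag
Hoxb1: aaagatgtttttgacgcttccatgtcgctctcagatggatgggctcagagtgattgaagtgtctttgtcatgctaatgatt
Gpr84: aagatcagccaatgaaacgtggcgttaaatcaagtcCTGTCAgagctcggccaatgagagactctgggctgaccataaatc
Usp29: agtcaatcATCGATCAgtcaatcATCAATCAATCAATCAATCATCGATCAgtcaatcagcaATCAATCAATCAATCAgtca

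A site was counted as a tandem repeat when at least 0.6 of its bases within 50 bp equalled the base 1 repeat unit before, for some unit of 2 to 30 bases. By this measure 207 of the 907 HOX-negative sites (22.8%) lay in tandem repeats, against 68 of 4225 HOX-positive sites (1.61%) and 4.38% of all 8154 events. The difference was 21.2 percentage points (95% Newcombe interval 18.6 to 24.1). Units of 4 bases made up 139 of the 207. A stricter share of 0.8 gave 36 against 12 sites (3.97% against 0.284%), and a looser one of 0.5 gave 279 against 114 (30.8% against 2.70%). The measure was chosen after the sequences of the best ranked sites had been seen. Reads were kept only where they aligned to a single place, and what this did to read numbers in repeats was not tested.

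MEIS values chose these sites and are given as description only. In the iHoxc6 library the HOX-negative sites ran from 22.7 to 2869 estimated ChIP reads with a median of 51.9, and HOX-positive sites had a median of 62.9. In iHoxc9 the medians were 56.3 and 99.7 reads, and in iHoxc10 they were 69.1 and 72.7. HOX-negative sites were thus on the weaker side in each library, most clearly in iHoxc9. Their median log2 fold over control was 4.27, 5.03 and 4.92 in iHoxc6, iHoxc9 and iHoxc10, against 4.62, 5.86 and 5.10 at HOX-positive sites. Control reads hardly differed, with medians of 5.30, 5.20 and 5.40 at HOX-negative and 5.00, 5.00 and 5.10 at HOX-positive sites. In the best ranked quintile of the common sites 89 of 1027 (8.67%) were HOX-negative, and in the last quintile 290 of 1026 (28.3%). The mean rank behind these quintiles was not scaled for list length, so the iHoxc9 list, the longest with 22749 events, can weigh most. The iHoxc6 and iHoxc10 lists had 8219 and 12982. Median ranks of HOX-negative and HOX-positive sites were 4062 and 2898 in iHoxc6, 9057 and 4343 in iHoxc9, and 3620 and 3127 in iHoxc10.

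Repeats and MEIS strength went together within the HOX-negative class. Tandem repeats held 46 of the 89 HOX-negative sites of the best quintile (51.7%) and 40 of the 290 of the last (13.8%). At HOX-positive sites the same shares were 3.41% and 0.679%. Median ChIP reads at the 207 repeat sites were 83.1, 64.9 and 123 in iHoxc6, iHoxc9 and iHoxc10. At the other 700 sites they were 48.4, 55.2 and 60.9. Of the 207 repeat sites, 28 lie in the array near Gm853, with medians of 233, 97.5 and 267 reads. These neighbours were counted as separate sites, and the quintile shares and medians were not recomputed without them. Median control reads were 4.80, 4.60 and 4.90 at repeat sites and 5.30, 5.30 and 5.40 elsewhere. The upper quartiles of control reads were 7.80, 7.60 and 7.80 at repeat sites and 7.40, 7.50 and 7.60 elsewhere. A single HOX-negative site, near Gm21060, had 80.7 and 81.8 control reads in iHoxc9 and iHoxc10, against at most 18.7 in iHoxc9 at HOX-positive sites.

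**Figure D1:**
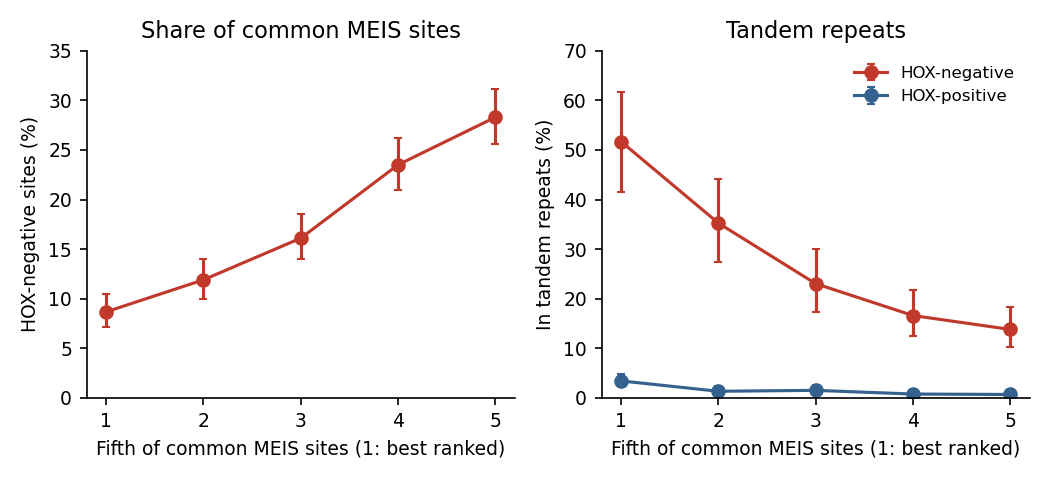
Common MEIS sites in quintiles of their mean rank over the 3 MEIS lists (x axis, 1 is the best ranked), with the percentage that was HOX-negative on the left and the percentage of each class in tandem repeats on the right (bars are 95% Wilson intervals). The HOX-negative share runs from 8.67% to 28.3%, while the share of HOX-negative sites in repeats runs from 51.7% to 13.8% and that of HOX-positive sites stays under 4%. Ranks were not scaled for list length.

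Of the 10 best ranked sites, the first lay 30715 bp downstream of the start of Mcfd2, a gene of transport out of the endoplasmic reticulum, in a run of MEIS cores. It had 2868.9 ChIP reads in iHoxc6, 1780.2 in iHoxc9 and 1608.8 in iHoxc10, over 6.0, 5.8 and 5.9 control reads. No other HOX-negative site reached as many reads in any of the 3 libraries. It had events in the EB HOXC6 and HOXA9 lists. The second, near Spa17, had 537.7, 807.1 and 862.9 reads, with EB HOXC6 and EB HOXC9 events. The site near Lypd6b, the third, had 687.3, 582.7 and 480.0 reads and no event in any HOX list. Neither of these 2 held a MEIS core within 50 bp.

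The other best ranked sites were in part neighbours. The Tshz2 pair, named for a zinc finger factor gene whose start was 77830 and 77716 bp away, lay close together at positions 169807063 and 169807177 of chromosome 2. The first of the pair had 1326.1, 307.8 and 539.2 reads in iHoxc6, iHoxc9 and iHoxc10. The second had 782.7, 402.9 and 998.5 reads, so that the first was the stronger in iHoxc6 and the weaker in iHoxc9 and iHoxc10. The Commd9 site had 284.5, 668.5 and 542.2 reads, and that near D330020A13Rik 327.7, 637.3 and 363.7. Values near Gm9913 were 659.0, 329.0 and 458.1. The Ccdc182 site had 234.1, 342.0 and 333.4 reads and stood apart from the rest by its HOX events, which it had in 9 of the 13 further lists. The tenth site, 149 bp upstream of Zkscan14, a zinc finger gene, was the best ranked promoter site with 268.7, 323.9 and 328.1 reads.

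Near Gm853 on chromosome 4, 28 HOX-negative sites fell within 6.03 kb, between positions 130202578 and 130208612. They stand for 28 events of the iHoxc6 list and 26 distinct events in each of the other lists. All 28 lay in tandem repeats, 27 held a PBX-HOX open pair and 0 held a MEIS core. Reads ran from 64.8 to 651.0 with a median of 233 in iHoxc6, from 26.1 to 238.7 with a median of 97.5 in iHoxc9 and from 120.5 to 507.1 with a median of 267 in iHoxc10. Control reads never passed 8.9. Day 4 HOXC6 events lay at 15 of the 28 and HOXD9 events at 11, while HOXC13, EB, day 4 HOXC9 and day 4 HOXC10 events lay at 0. No event of any HOX list lay at 7 of the 28.

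**Figure D2:**
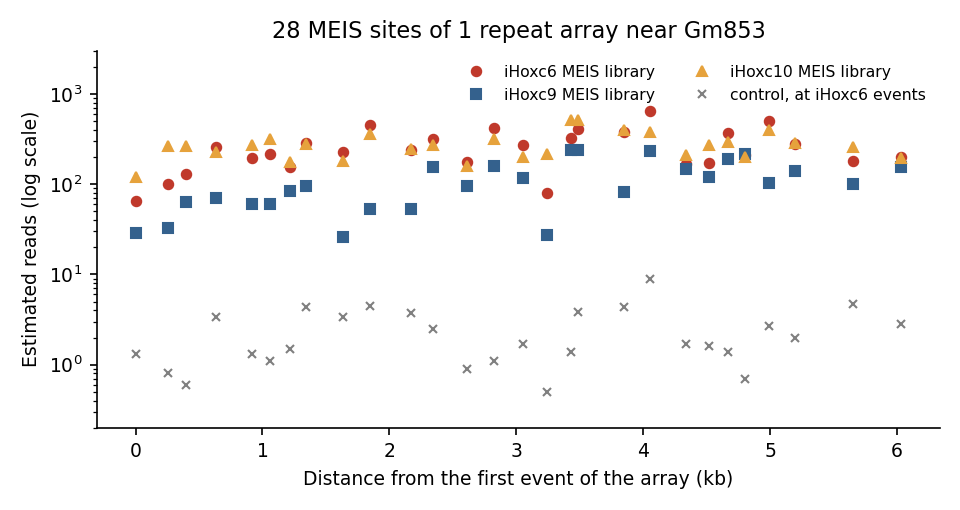
Estimated reads (y axis, log scale) of the 28 MEIS sites near Gm853 against their distance in kb from the first site, for the 3 MEIS libraries and for the control at the iHoxc6 events. ChIP reads lie between 26.1 and 651.0 along 6.03 kb, all above the control reads, which stay at or under 8.9.

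Clusters of this kind were few. The 907 sites made 838 separate runs at a distance of 1 kb. With only the best ranked site of each run kept in both classes, the share in tandem repeats differed by 15.97 points and the share with an open pair by 18.30 points, and the other recomputed differences between the classes kept their direction and their call too.

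The HOX lists that took no part in the choice of sites separated the 2 classes, but they are not independent of that choice. The paper reports similar binding of HOXC6 and HOXC8, and groups HOXA9 and HOXD9 with HOXC10. It also reports that chimeras resemble most the factor whose DNA-binding domain they carry. How much of the differences below came from the choice of sites was not tested. At HOX-negative sites the most frequent were day 4 HOXC6 events, at 478 of 907 sites (52.7%, 95% Wilson interval 49.4 to 55.9), against 95.7% of HOX-positive sites and 87.0% of all events. The difference was -43.0 points (-46.3 to -39.7). Day 4 HOXC6 is the same factor as in the day 3 list that chose the sites, with 69297 events and signal fractions of 0.304 and 0.311, whereas the day 3 list had 17900 events. Its libraries had 15.5 and 17.0 M aligned reads at day 4 and 17.7 and 16.4 M at day 3, with 4.72 and 20.6 M control reads. Day, signal fraction and control differed together, so their parts in these events cannot be told apart. HOXD9 events at day 3 were at 388 sites (42.8%) against 93.4% of HOX-positive sites, over a background of 78.6%. HOXA9 events were at 33.2% against 92.4%, over a background of 75.6%. The central factor HOXC8 was at 150 (16.5%) against 85.1%, with 72.2% over all events. These differences were -50.7 (-53.9 to -47.3), -59.2 (-62.3 to -56.0) and -68.6 points (-71.1 to -65.8).

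Events of the other 2 day 4 lists were less frequent. Day 4 HOXC10 events lay at 122 HOX-negative sites (13.5%), against 71.5% of HOX-positive sites and a background of 50.2%. Day 4 HOXC9 events lay at 76 (8.38%), against 75.8% and 56.3%. Differences were -58.0 points (-60.5 to -55.3) and -67.5 points (-69.5 to -65.1). HOXC6 was thus the most frequent day 4 factor at HOX-negative sites, as it was at HOX-positive sites (95.7%) and over all events (87.0%). Its list was also the longest, with 69297 events against 44024 for HOXC9 and 22027 for HOXC10. Its signal fractions were 0.304 and 0.311, against 0.14 and 0.188 for HOXC9 and 0.047 to 0.056 for HOXC10. The rule had left out sites with earlier events of these same factors. Whether the place of HOXC6 came from the sites, this choice, the libraries or the lists was not tested. Outside repeats 394 of 700 sites had a HOXC6 event (56.3%), 122 a HOXC10 event (17.4%) and 76 a HOXC9 event (10.9%). In tandem repeats day 4 HOXC6 was at 84 of 207 sites (40.6%) and the other 2 factors at 0, which allows up to 1.45%.

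HOXC13, the most posterior factor of the series, had the longest list of the full-length factors at day 3, with 115879 events. Only 35 HOX-negative sites had one (3.86%, 95% Wilson interval 2.79 to 5.32), against 1351 HOX-positive sites (32.0%) and 24.7% of all events. The difference was -28.1 points (-29.9 to -26.1). For scale, 0.877% of the bases on these chromosomes lay within 100 bp of a HOXC13 event. All 35 were outside tandem repeats, and 5 were at promoters. Events of the chimeras were unevenly spread. HOXC13:C10.2 and HOXC13:C10.1 events lay at 191 (21.1%) and 89 (9.81%) HOX-negative sites, against 93.0% and 78.0% of HOX-positive sites, with 74.6% and 63.2% over all events. HOXC10:C13.1 and HOXC10:C13.2 events lay at 11 (1.21%) and 15 (1.65%), against 23.1% and 24.8%, with backgrounds of 16.3% and 17.9%.

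The 5 best ranked sites with a HOXC13 event lay near Rbbp8, Pdzrn4, Cux2, Tns3 and Sfrp1. Cux2, a homeodomain factor gene of neurons, had its site 29415 bp inside the gene, with 91.8, 114.3 and 68.7 reads in iHoxc6, iHoxc9 and iHoxc10 and events in 10 of the 13 lists. The site 19089 bp from the start of Sfrp1, which encodes a secreted WNT antagonist, had 53.4, 125.0 and 85.7 reads. The Rbbp8 site had 83.5, 113.4 and 111.3 reads and the nearest HOX event of the 3 defining lists 181 bp away. In reads not scaled for depth, 4 of the 5 were lowest in iHoxc6, and the Cux2 site was lowest in iHoxc10.

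In EBs without patterning signals both HOXC6 and HOXC9 events were scarcer at HOX-negative than at HOX-positive sites. Within the HOX-negative class HOXC6 events outnumbered HOXC9 events, and within the HOX-positive class HOXC9 events outnumbered HOXC6 events. EB HOXC6 events lay at 177 HOX-negative sites (19.5%, interval 17.1 to 22.2) against 30.7% of HOX-positive sites and 24.7% of all events. EB HOXC9 events lay at 72 (7.94%, interval 6.35 to 9.88) against 39.2% and 29.1%. The differences were -11.2 points (-14.0 to -8.13) for HOXC6 and -31.3 points (-33.5 to -28.9) for HOXC9. Of the HOX-negative sites with an EB event, 123 had HOXC6 alone, 18 HOXC9 alone and 54 both. Of the HOX-positive ones, 662 had HOXC9 alone and 995 both, and the rest of the 1296 with a HOXC6 event had HOXC6 alone. The EB HOXC6 list was the shorter, with 44751 events against 128388, and 0.336% and 0.961% of the bases lay within 100 bp of them. Outside repeats EB HOXC6 was at 21.9% and EB HOXC9 at 8.86%, and 24 of the 177 EB HOXC6 sites were in repeats. The rule had left out sites with day 3 events of these same 2 factors, so the EB shares are not independent of the choice of sites. Those day 3 lists held 74085 HOXC9 and 17900 HOXC6 events, found at 3900 and 2799 of the common sites. Whether the difference between the 2 EB factors came from this choice, the cells, the libraries or the lists was not tested.

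The 5 best ranked sites with an EB event were those named above near Mcfd2, Spa17, Tshz2, Gm9913 and Zkscan14. All 5 had an EB HOXC6 event and the Spa17 site an EB HOXC9 event too. No EB event was found at 712 of the 907 sites.

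PBX events were rare everywhere, and the PBX lists were short, with 1165 events in iHoxc9 and 848 in iHoxc10 cells and signal fractions of 0.009 and 0.008. They lay at 4 and 2 HOX-negative sites in the 2 lists (0.441% and 0.221%, with 0.417% and 0.221% over all events), at different sites. Together these were 6 of 907 (0.662%), against 37 of 4225 HOX-positive sites (0.876%) and 0.564% of all events. The difference of -0.21 points had an interval from -0.70 to 0.60. All 6 were at promoters, where they made up 6 of 138 sites, against 0 of the 769 sites farther off, which allows up to 0.390%. Of the events in the PBX lists themselves, 85.5% and 82.4% were at promoters. Among HOX-positive sites 9 of the 37 were at promoters, and away from promoters the difference between the classes was -0.72 points (-1.04 to -0.18).

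The 6 PBX promoters were those of Armc3, Hmbox1, Lars, Glul, Itfg2 and Abcb8. The Armc3 site, 135 bp upstream of the start of a gene of armadillo repeats, had 88.2, 166.1 and 144.8 MEIS reads in iHoxc6, iHoxc9 and iHoxc10, and the sequence above shows 3 overlapping open pairs in it. Hmbox1, a homeobox gene, had its site 1 bp from its start, with 88.2, 122.8 and 84.6 reads and events in 7 of the 13 further HOX lists. At Lars, for leucyl-tRNA synthetase, there were 93.2, 92.3 and 60.3 reads. Glul, for glutamine synthetase, had 74.8 and 81.8 reads in iHoxc9 and iHoxc10 and a log2 fold over control of 3.60 in iHoxc6. The weakest were Itfg2 with 33.2, 36.5 and 50.4 reads and Abcb8, for a mitochondrial transporter, with 33.4, 25.2 and 28.9. Each of the 6 had an event in at least 1 further HOX list, and each had a HOXD9 event.

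Summed over the 13 lists, 228 HOX-negative sites had no event in any of the 16 HOX lists (25.1%, interval 22.4 to 28.1). A further 186 had an event in 1 list, 127 in 2, 129 in 3 and 82 in 4, and 1 site had one in 12. Tandem repeats held 102 of the 228 (44.7%). Repeats were also where HOX events were scarcer, with an event of at least 1 of the 13 lists at 105 of 207 sites (50.7%) against 574 of the other 700 (82.0%), a difference of -31.3 points (-38.5 to -23.9). Only 19 of the 228 were at promoters (8.33%).

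**Figure D3:**
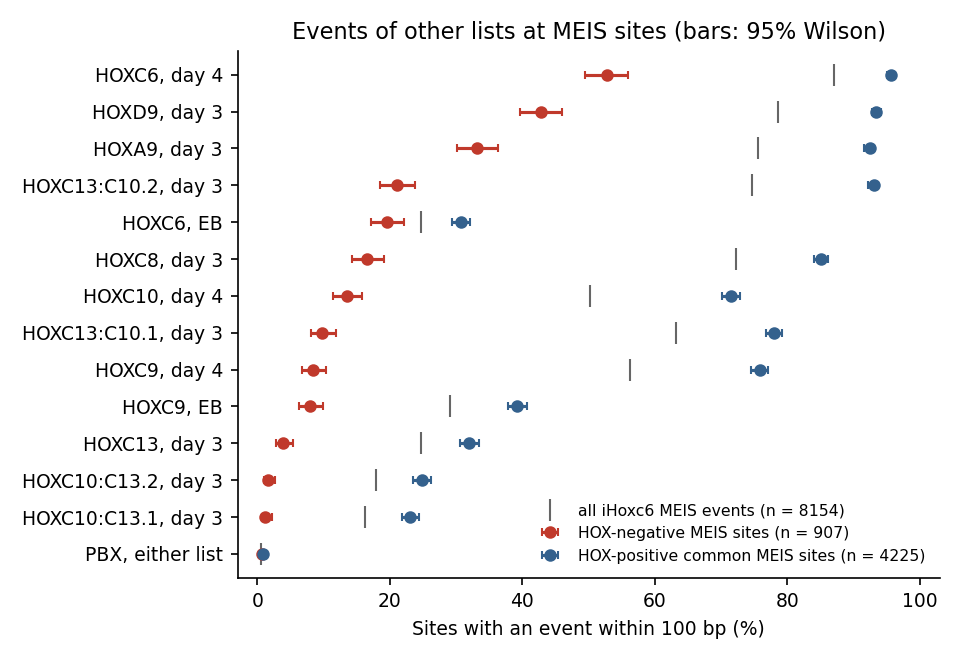
Percentage of sites with an event within 100 bp (x axis) in each list that the rule did not use, for HOX-negative sites, HOX-positive sites (points with 95% Wilson intervals) and all 8154 iHoxc6 MEIS events (ticks). HOX-negative shares run from 0.662% for PBX to 52.7% for day 4 HOXC6 and lie under the HOX-positive ones in every HOX list.

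The 2 classes differed in the motifs of HOX proteins, while the MEIS core was about as frequent in both. The MEIS core TGACAG was within 50 bp at 252 HOX-negative sites (27.8%) and 1092 HOX-positive sites (25.8%), with 25.5% over all events. The difference of 1.94 points (-1.18 to 5.21) was not called. Outside tandem repeats it was 32.4% against 26.1%, 6.28 points (2.65 to 10.07). The PBX-MEIS composite TGATTGACA was rare, at 20 sites (2.21%) against 21 (0.497%), over 0.711% of all events, and the difference was 1.71 points (0.89 to 2.90).

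Cores read by HOX proteins were scarcer at HOX-negative sites. The rule split the classes by HOXC6, HOXC9 and HOXC10 events, where the paper finds TAAT, TTTAT and TGATTTAT motifs. These differences are therefore not independent of the choice of sites. The central HOX core TAAT lay at 404 (44.5%) against 2766 (65.5%), with 63.6% over all events, a difference of -20.9 points (-24.4 to -17.4). The posterior HOX core TTTAT lay at 199 (21.9%) against 43.3% and a background of 38.3%, -21.4 points (-24.3 to -18.2). For the HOXC13 core TTTAC the shares were 6.50%, 16.6% and 14.9%. The PBX-HOX pair TGATTTAT, a spelling of posterior factors with PBX, was at 25 HOX-negative sites (2.76%) against 411 (9.73%) and 6.71% of all events. Differences were -10.13 points (-12.0 to -8.03) and -6.97 points (-8.25 to -5.43). TAAT and TTTAT partly overlap other motifs, TTTAT being contained in TGATTTAT. Outside repeats these 4 motifs remained scarcer, with differences of -16.0 (-20.0 to -12.0), -19.9 (-23.2 to -16.3), -8.96 (-11.1 to -6.48) and -6.48 points (-7.92 to -4.66).

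The open form of the PBX-HOX pair, TGATNNAT, went the other way. It lay at 534 HOX-negative sites (58.9%) against 1590 HOX-positive sites (37.6%) and 35.8% of all events, a difference of 21.2 points (17.7 to 24.7). Part of this was in repeats, where it lay at 182 of 207 sites (87.9%). Outside them it lay at 50.3% and 36.7% of the 2 classes, 13.6 points apart (9.62 to 17.6), and with the looser repeat measure of 0.5 the difference was 9.19 points (5.06 to 13.4).

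The central base pair of TGATNNAT is known to bear on which HOX protein stands beside PBX, with the spelling TGATGGAT known for the most anterior paralogue group. After the total had been seen, the 16 spellings were counted one by one. TGATTGAT lay at 200 HOX-negative sites (22.1%) against 330 HOX-positive sites (7.81%) and 8.18% of all events, 14.2 points (11.5 to 17.2). TGATGGAT lay at 193 (21.3%) against 205 (4.85%), 16.4 points (13.8 to 19.3), and TGATAGAT at 66 (7.28%) against 61 (1.44%), 5.83 points (4.26 to 7.74). TGATTAAT, at 54 (5.95%) against 167 (3.95%), differed by 2.00 points (0.50 to 3.82), and TGATGAAT, at 36 (3.97%) against 111 (2.63%), by 1.34 points (0.13 to 2.88). The posterior spelling TGATTTAT given above was the only 1 of the 16 whose interval lay wholly below 0.

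These spellings differed in how far they were part of repeats. Outside repeats TGATTGAT was at 133 of 700 sites against 270 of 4157 HOX-positive sites (6.50%), 12.5 points (9.66 to 15.7). TGATGGAT was at 70 (10.0%) against 4.69%, 5.31 points (3.19 to 7.83), and 80 of the 228 sites in no HOX list held it (35.1%). TGATAGAT and TGATTAAT differed outside repeats by 3.51 (2.12 to 5.37) and 3.34 points (1.52 to 5.58). TGATGAAT was at 2.86% against 2.57% there, and its 0.28 points (-0.85 to 1.86) were not called. Where TGATTGAT occurred it was close to the event, within 10 bp of it at 163 of 200 HOX-negative sites (81.5%) and at 237 of 330 HOX-positive sites (71.8%).

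Of the other factors' motifs, 3 were called scarcer at HOX-negative sites, 1 was called more frequent and 4 were not called. The proneural E-box CAGCTG, bound by neuronal bHLH factors, lay at 68 HOX-negative sites (7.50%) against 12.7% and 11.1% of all events, -5.17 points (-7.02 to -3.03). This call was lost outside repeats by the looser measure of 0.5, at -2.64 points (-5.03 to 0.17), and at q-values under 1e-10, at -5.02 points (-8.59 to 0.23). The SOX core ACAAAG was also at 68 (7.50%) against 552 HOX-positive sites and 12.4% of all events, -5.57 points (-7.43 to -3.43). The POU octamer ATGCAAAT was at 3 (0.331%) against 1.16% and 0.846%, -0.83 points (-1.26 to -0.13), a call lost in 10 of 19 alternative settings. The NFY box CCAAT showed 15.5%, 14.9% and 15.0%, and its difference of 0.63 points (-1.84 to 3.35) was not called. The GC box GGGCGG of SP and KLF factors was at 30 (3.31%) against 2.08% and 2.05%, 1.22 points (0.13 to 2.65), and 0.38 points (-0.57 to 1.74) away from promoters. Without the iHoxc9 MEIS library the GC box difference was 0.96 points (-0.02 to 2.20) and was not called. NRF1 (GCGCATGC), CRE (TGACGTCA) and ETS (CCGGAAG) motifs lay at 1, 0 and 0 HOX-negative sites, with 0.0981%, 0.147% and 0.294% over all events. GC content within 50 bp had a median of 46.5% (quartiles 41.6 and 51.5) against 45.5% (40.6 and 49.5).

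**Figure D4:**
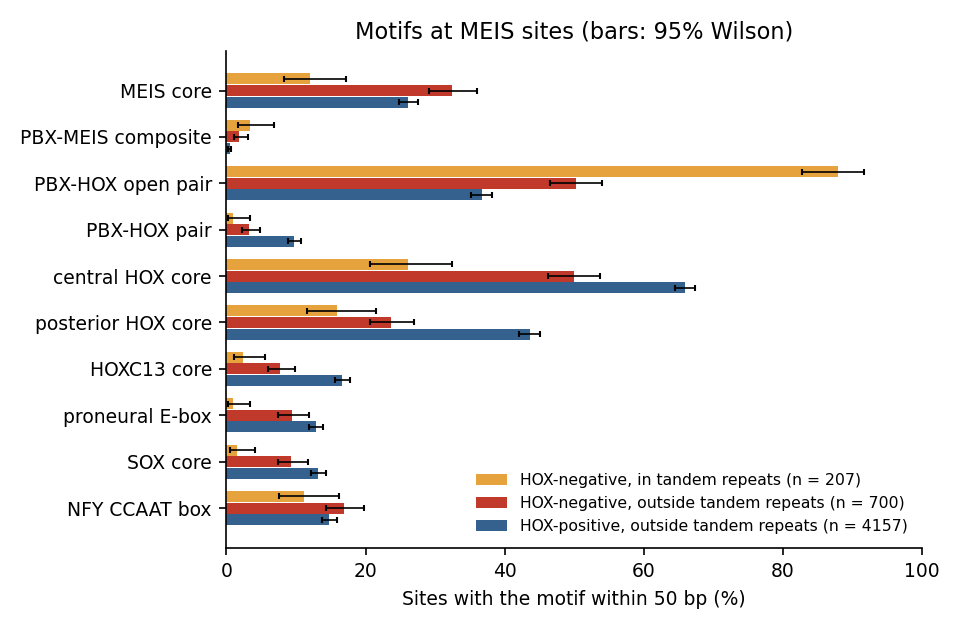
Percentage of sites with each motif within 50 bp of the event (x axis, bars with 95% Wilson intervals) at HOX-negative sites in tandem repeats, HOX-negative sites outside them and HOX-positive sites outside them. The open pair reaches 87.9%, 50.3% and 36.7% in these 3 groups, while the central HOX core runs the other way at 26.1%, 50.0% and 66.0%.

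HOX-negative sites were nearer to genes. Within 1 kb of the start of any annotated transcript lay 138 of the 907 (15.2%), against 344 HOX-positive sites (8.14%) and 8.35% of all events, a difference of 7.07 points (4.72 to 9.68). Such promoter windows cover 5.96% of the bases. Counting protein-coding transcripts alone gave 100 sites against 174 (4.12%), 6.91 points (4.92 to 9.18). The promoter excess was larger outside repeats, at 18.7% against 8.18%, whereas 7 of the 207 repeat sites were at promoters (3.38%). It was not called at q-values under 1e-10 in each MEIS list, with 3.60 points over 166 sites, nor where the sites also lacked HOXC8, HOXA9 and HOXD9 events, with 1.28 points (-1.27 to 4.49) over 435 sites. The median distance to a protein-coding start was 31.5 kb (quartiles 8.58 and 97.4) against 61.5 kb (19.1 and 171). More than 50 kb from any such start lay 41.6% against 55.4%, -13.8 points (-17.3 to -10.2). Introns away from promoters held 44.9% and 48.7%.

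**Figure D5:**
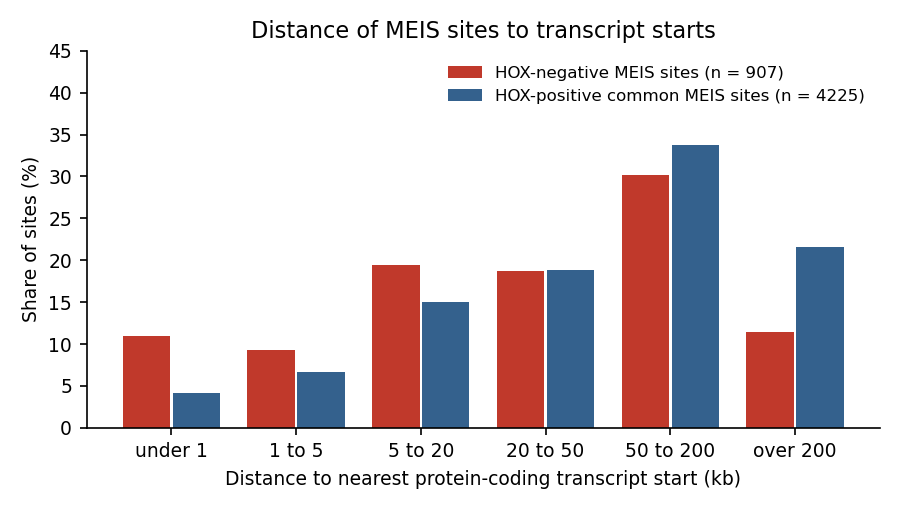
Percentage of HOX-negative and HOX-positive MEIS sites (y axis) by distance in kb to the nearest protein-coding transcript start (x axis). Between 1 and 5 kb the shares are 9.26% and 6.72%, and over 200 kb they are 11.4% and 21.6%.

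Promoter sites and the others differed in the HOX lists they met. HOXD9 events lay at 87 of the 138 promoter sites (63.0%) and 39.1% of the 769 others, a difference of 23.9 points (14.9 to 32.2). For HOXA9 it was 63 (45.7%) and 238 (30.9%), 14.7 points (5.95 to 23.6). EB HOXC9 went the other way, at 5 (3.62%) and 67 (8.71%), -5.09 points (-8.11 to -0.17), as did HOXC13:C10.2, at 20 (14.5%) and 171 (22.2%), -7.74 points (-13.54 to -0.36). EB HOXC6, at 19.6% and 19.5%, and day 4 HOXC6, at 55.1% and 52.3%, showed no such difference, with intervals of -6.41 to 7.92 and -6.24 to 11.6 points. The HOXD9 list had 16.2% of its events at promoters and the HOXA9 list 9.99%, against 8.35% of the MEIS list. Promoter sites held the open pair less often, at 43.5% against 61.6%, -18.2 points (-26.8 to -9.12), and the NFY box more often, at 25.4% against 13.8%, 11.6 points (4.55 to 19.8). The central HOX core was at 34.8% and 46.3% of them, -11.51 points (-19.74 to -2.54), and the GC box at 9.42% and 2.21%, 7.21 points (3.16 to 13.30). Their MEIS core shares were 28.3% and 27.7%.

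The 8 best ranked coding promoters were those of Zkscan14, Ing3, Zfp667, Rab3gap1, Ube2q1, Shisa7, Narf and Armc3. Ing3, a subunit gene of a histone acetyltransferase, had its event at the start itself, with 153.1, 194.4 and 224.8 reads in iHoxc6, iHoxc9 and iHoxc10 and a MEIS core. Zfp667 had 163.8, 184.9 and 247.4 reads and also the most control reads of the 8, between 20.7 and 21.1. Rab3gap1, for a regulator of RAB GTPases, had 104.7, 192.2 and 165.5, and Ube2q1, a ubiquitin conjugation gene, 107.3, 176.7 and 216.4. Shisa7 had 96.4, 184.9 and 170.4 reads and Narf 87.8, 183.6 and 192.1. In reads not scaled for depth all 8 were lowest in iHoxc6, and Narf alone of them had no event in any HOX list.

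Among genes, 463 of 21670 protein-coding ones (2.14%) were nearest to a HOX-negative site within 50 kb, and 6.37% were nearest to a HOX-positive one. Of the 463, 428 had 1 site and 30 had 2. Those with more were Gm853 with 28, Nkx2-5, a heart factor gene, and Ppm1l, a phosphatase gene, with 4 each, and Matn1 and Prtg with 3 each. First by name among the genes with 2 sites were 1700008O03Rik, Acot11, Ccdc182, Chd1 and Col18a1. The 4 sites near Nkx2-5 lay between positions 26831361 and 26831843 of chromosome 17, and their reads ran from 85.9 to 425.0 in iHoxc6, from 51.5 to 88.0 in iHoxc9 and from 149.0 to 235.0 in iHoxc10.

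Hox genes and TALE genes had the highest shares among the 16 gene lists looked at. Of 39 Hox genes 5 (12.8%) were nearest to a HOX-negative site, among them Hoxa2, Hoxb1, Hoxc9 and Hoxd3, and 12 (30.8%) to a HOX-positive one. Hoxd3 had its site 2 bp from the start, with 96.1, 99.9 and 189.6 MEIS reads in iHoxc6, iHoxc9 and iHoxc10. Hoxa2, a gene of hindbrain patterning, had 92.0, 71.5 and 59.1 reads at 2019 bp upstream. The Hoxb1 and Hoxc9 sites were of lower rank and are named after their values had been seen. Hoxb1 had a site 203 bp upstream with 45.8, 43.2 and 47.1 reads and both EB events, and Hoxc9 an intron site with 38.4, 32.3 and 75.3. The upstream region of Hoxb1 is known for sites that PBX and HOX proteins read together, and the window printed above holds no open pair and no MEIS core.

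Of 11 TALE genes 3 (27.3%) had a HOX-negative site, against 5 (45.5%) with a HOX-positive one. Pknox1 and Pknox2 encode the PREP proteins, relatives of MEIS that read the same core. The Pknox1 site lay 1 bp from the start and had 39.2, 57.6 and 47.4 reads, and the Pknox2 site lay 96 bp inside with 45.1, 43.8 and 65.4 reads and no event in any HOX list. MEIS cores stood at Hoxa2, Pknox1 and Pknox2, and 30 bases around each follow, chosen after their values had been seen, with the core in capitals. They lie at chr6:52166857-52166886, chr17:31564882-31564911 and chr9:37147218-37147247.
Hoxa2: caccaaaagcccTGACAGcttctggccctt
Pknox1: cacccaggtaagCTGTCActcaaccgctcc
Pknox2: catggaaatgaaTGACAGcttacctgatgc

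The remaining lists held few. Retinoic acid genes had 2 of 22 (9.09%), among them the retinoic acid binding protein gene Crabp1, against 13 (59.1%) with HOX-positive sites. The Crabp1 site had 33.4, 62.1 and 25.3 reads. In the Hedgehog list 1 of 15 genes had one, Gli2, the transcription factor of the pathway, 76 bp upstream of its start with 43.8, 38.6 and 43.9 reads. Wnt genes had 3 of 32 (9.38%), Sfrp1, the receptor gene Lrp5 with 34.2, 43.0 and 109.4 reads and Apc with 39.3, 38.5 and 43.9. Pluripotency genes had 2 of 25 (8.00%), Zfp42 with 63.2, 33.8 and 41.6 reads and Esrrb with 30.4, 27.8 and 44.0. The guidance receptor gene Robo1 had 26.2, 40.8 and 50.4 reads and the splicing factor gene Rbfox2 64.7, 101.1 and 66.8. The LIM homeodomain gene Lhx5 had 53.9, 43.6 and 160.1. Each was the only one of its list, Lhx5 being counted under motor neuron identity and not under interneuron identity. Lists without any HOX-negative site were the Notch pathway, ventral progenitor patterning, interneuron identity, proneural and neuronal bHLH, Sox and Pou, cell cycle and ribosomal protein genes. Of these, ventral progenitor genes had HOX-positive sites at 8 of 18 (44.4%), bHLH genes at 10 of 18 (55.6%) and Sox and Pou genes at 8 of 22 (36.4%). These counts are small and were not tested.

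The sites near the 100 bp limit show how the class was bounded. The nearest HOX event of the defining lists lay up to 200 bp away at 133 HOX-negative sites (14.7%), up to 500 bp away at a further 63, up to 1000 bp away at 40 and over 10 kb away at 358 (39.5%), with a median of 5.92 kb. Just outside the limit, within 1 bp of it, were HOX-negative sites that included those near St6galnac3 and Gapvd1, with log2 folds over control of 4.77 and 3.61 in iHoxc6. Just inside, at 100 bp, were HOX-positive sites near Olfr31, Map3k13 and Irx1, with 6.13, 4.30 and 4.12. The 2 sets overlapped. In all, 545 common sites had their nearest HOX event between 51 and 100 bp away.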

How the data were processed

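The sites, motifs and gene lists were chosen with earlier results of these data known, and the repeat measure after sequences were seen. The authors aligned reads to mm10 with Bowtie 1.0.1, keeping uniquely placed reads, and called events with MultiGPS over pooled replicates against a control at a q-value under 0.001. Picard 2.8.2 is also in the submitters' processing notes. The deposited lists give, per event, an estimated count of ChIP and of control reads, a log2 fold over control and a score, the log2 q-value. Deposited columns of edgeR 3.22.5 comparisons between conditions (fold changes and q-values) were not used, nor were position tracks. Positions matched GRCm38, and 43785 of 43785 MEIS sequences were found within 300 bp. Genes were from GENCODE release 21.

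Events were shared within 100 bp, promoters within 1 kb of a transcript start and motifs within 50 bp on either strand. Shares have 95% Wilson intervals and differences 95% Newcombe intervals, called where 0 lies outside. A share of 0 is given with the limit of 3 counts. Functions were tested on simulated data (Python 3, numpy). Sites named were the 10 best ranked, 8 best at coding promoters, all with PBX events, 5 best with HOXC13 and with EB events, and up to 3 per gene list, with the 10 genes nearest to most sites. Some of the sites named by this rule are not reported here.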

Additional observations from a re-analysis of the deposited data

How the results depend on the processing

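No paired analysis was possible because the results come from lists that pool libraries or hold a single library, with no test over samples. The number of sites was 1452 with a HOX distance of 50 bp, 166 with q-values under 1e-10 in each MEIS list, 435 without HOXC8, HOXA9 and HOXD9 events, 285 in the better ranked part of the common sites and 228 without events in 13 further HOX lists. Without the iHoxc9 or the iHoxc10 MEIS library it was 1140 and 1046. The promoter difference was 3.60 points at the stricter q-value, 1.28 without HOXC8, HOXA9 and HOXD9 and 0.19 without any of the 13, and was not called in these 3. The PBX difference was 0.01 points at a HOX distance of 500 bp, 0.33 in the worse ranked part and 0.06 outside repeats by the looser measure, and was called away from promoters at -0.72. The MEIS core difference was -0.69 points at 500 bp, -0.01 at the stricter q-value and -2.36 in the better ranked part. It was called at 3.17 with iHoxc9 positions, 4.91 against sites of all 3 HOX factors, 4.42 in the worse ranked part, 6.28 and 6.37 outside repeats and 2.92 in a window of 25 bp. The GC box difference was -0.93 without HOXC8, HOXA9 and HOXD9, -0.09 in the better ranked part and -1.21 without the 13. It was not called at 0.96 without the iHoxc9 MEIS library, 1.03 at a MEIS distance of 200 bp, 0.24 at the stricter q-value and 0.38 away from promoters. The E-box call was lost at -2.64 outside repeats by the looser measure and -5.02 at the stricter q-value, the PBX-MEIS composite call at 1.59 at that q-value, and the POU octamer call in 10 of 19 alternatives, at -1.36 to -0.36. The number of nearest genes was 764 with no distance limit and 235 within 10 kb. The cause was not tested. The HOXC13, EB, central HOX core and open pair differences kept their direction and call in all alternatives run. Alternatives on repeats, runs of sites and the 13 lists were added after the data were seen.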
